A study of Mus musculus with 9 samples.

Results

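The protocadherin beta array is a row of cell adhesion genes on mouse chromosome 18. Its last 10 genes, Pcdhb13 to Pcdhb22, were examined here in neural stem cell cultures with (del/del) and without (fl/fl) deletion of Smchd1. The members were the 10 rows of the deposited expression table, of 25965 in all, that carry these symbols, taken in the order of their start positions. The table lists 22 genes of the beta array, so the other 12, Pcdhb1 to Pcdhb12, served as the comparison within the array. Of the 8 members abundant enough for the main test between genotypes 0 passed, against 1.55% of all genes tested. The last 10 genes nevertheless made up a smaller part of the array's reads in every del/del library (64.9% to 69.4%) than in any fl/fl library (81.5% to 84.0%), beside a summed level of the other 12 genes of 24.3 ± 2.24 RPM in del/del and 8.54 ± 0.941 RPM in fl/fl libraries (reads per 1 M reads; SD, n = 4 and 5). The summed level of the last 10 genes themselves was not lower in del/del: it was 50.2 ± 4.68 RPM there and 40.1 ± 6.49 RPM in fl/fl libraries (SD, n = 4 and 5), with overlap.

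Clustered protocadherins are transmembrane proteins of the cadherin superfamily that recognise identical partners on neighbouring cells and are best known for letting the branches of a neuron tell self from non-self. Each gene of the beta array is a single-exon unit with its own promoter, and unlike genes of the neighbouring alpha and gamma arrays it is not joined to shared constant exons. In neurons the promoters are chosen in different combinations from cell to cell, a choice tied to DNA methylation, the insulator protein CTCF, cohesin and distant enhancers. Smchd1 belongs to the SMC proteins of chromatin and is needed to keep the inactive X chromosome, imprinted genes and clustered protocadherins silent.

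Total RNA was sequenced from cultures of C57BL/6 neural stem cells that were established from Smchd1 fl/fl E14.5 embryos, in which loxP sites allow Cre recombinase to delete part of Smchd1. Each line was divided, per the labels' protocols. The del/del cultures received a retrovirus with Cre and a puromycin cassette and were selected with puromycin from 24 h, and the fl/fl cultures stayed untransduced. Cultures of both genotypes were harvested on day 7. Smchd1 deletion therefore cannot be told apart from retrovirus and puromycin. There were 4 del/del libraries, from female lines 1, 2 and 3 and male line 5, and 5 fl/fl libraries, from female lines 1, 2 and 3 and male lines 5 and 7. Lines 1, 2, 3 and 5 were thus measured in both genotypes. The labels do not say which lines came from separate embryos, so p-values measure only the spread between these libraries.

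Levels are given as log2 RPM, where RPM is the reads of a gene per 1 M reads of its library, and whole reads could be recovered from them. Library totals were 74.0 to 105.1 M reads in del/del libraries and 24.1 to 116.6 M in fl/fl libraries. Female fl/fl 2 stood apart, with 24.1 M reads against at least 74.0 M in the others, and with 53.3% of its reads in listed genes against 34.8% to 44.4%. Female del/del 1 was next, with 44.4%. Levels are scaled to all reads of a library, and 81.3% of genes kept had the higher level in the del/del library of line 1, but only 32% did in that of line 2. Smchd1 itself fell to 5.21 ± 0.13 log2 RPM in del/del libraries (SD, n = 4), against 6.39 ± 0.25 in fl/fl libraries (SD, n = 5). The fold was 0.438 (limma, adjusted p = 0.00751), and these values do not show how complete the deletion was. All 14 neural stem cell markers on the list were detected and tested, and none passed. Their summed level was 715 to 982 RPM in del/del and 664 to 1383 RPM in fl/fl libraries. In such bulk samples, fewer cells that use a gene and less RNA per cell cannot be told apart.

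In the table's mm10 coordinates the 10 members lie between chr18:37442517 and chr18:37521419, each as 1 row that overlaps no other row. Pcdhb13 (chr18:37442517-37446209) and Pcdhb14 (chr18:37447657-37451094) come first and are followed by the widest gap among them, 22451 bases, before Pcdhb15 (chr18:37473546-37476340). Pcdhb16 (chr18:37477768-37483035), Pcdhb17 (chr18:37485021-37488289), Pcdhb18 (chr18:37489465-37494503) and Pcdhb19 (chr18:37496997-37504127) follow. Pcdhb20 (chr18:37504264-37507658) starts 136 bases past Pcdhb19. The array ends with Pcdhb21 (chr18:37513652-37518313) and Pcdhb22 (chr18:37518353-37521419), which are 39 bases apart. In the GENCODE vM21 annotation of the same build each member is a single exon that holds the coding part and both untranslated ends, apart from a shorter spliced transcript of Pcdhb22. The deposited values are for whole rows and do not separate coding from untranslated parts.

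Because the genes are copies of one ancestral gene, the share of each transcript that also occurs elsewhere was measured on the GENCODE vM21 transcripts. Words of 50 bases that also occur in another gene made up 1.8% of Pcdhb13 and 11.3% of Pcdhb21, the lowest and highest member, and Pcdhb22 had 8.64%. Pcdhb21 and Pcdhb22 share most of these words with each other, since their transcripts overlap in that annotation. How the authors' counting assigned reads there is not given in the sources used here, so the values of Pcdhb21 and Pcdhb22 are less certain than those of the other 8.

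The members differed widely in how much RNA they gave. Per length, as RPM per kilobase of the row, Pcdhb20 was highest, with 2.4 ± 0.202 in del/del libraries (SD, n = 4) and 1.92 ± 0.297 in fl/fl libraries (SD, n = 5). Next came Pcdhb22 (1.98 in del/del, 1.62 in fl/fl), Pcdhb17 (1.78 in del/del, 1.37 in fl/fl), Pcdhb18 (1.59 in del/del, 1.27 in fl/fl) and Pcdhb19 (1.33 in del/del, 1.2 in fl/fl). A lower tier was made of Pcdhb16 (0.792 in del/del, 0.631 in fl/fl), Pcdhb14 (0.996 in del/del, 0.62 in fl/fl) and Pcdhb21 (0.801 in del/del, 0.599 in fl/fl). Pcdhb15 (0.298 in del/del, 0.259 in fl/fl) and Pcdhb13 (0.133 in del/del, 0.0582 in fl/fl) were lowest. The highest mean was 18 times the lowest in del/del and 32.9 times the lowest in fl/fl libraries.

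The order was compared between neighbours both across and within libraries. Across fl/fl libraries the ranges of Pcdhb20, Pcdhb22, Pcdhb17, Pcdhb18 and Pcdhb19 overlapped from each to the next, and so did those of Pcdhb16, Pcdhb14 and Pcdhb21. The ranges did not overlap between Pcdhb19 and Pcdhb16, between Pcdhb21 and Pcdhb15, or between Pcdhb15 and Pcdhb13. Within a library, these 3 steps and that from Pcdhb20 to Pcdhb22 held in 9 of 9 libraries, and Pcdhb22 lay above Pcdhb17 in 8 of 9. The steps from Pcdhb17 to Pcdhb18, from Pcdhb18 to Pcdhb19 and from Pcdhb14 to Pcdhb21 held in 7 of 9, and Pcdhb16 lay above Pcdhb14 in only 2 of 9. The order of the top 5 by mean was the same in both genotypes. The one member that changed place by more than 1 rank was Pcdhb16, which ranked 8 in del/del and 6 in fl/fl libraries, while Pcdhb14 ranked 6 in del/del and 7 in fl/fl libraries. Row spans differ from the annotated transcript lengths for some members. The vM21 transcript has 8695 bases for Pcdhb14 against a row of 3438 bases, 6609 for Pcdhb22 against 3067, and 4660 for Pcdhb17 against 3269. The places of these members, and so the order of the top 5, depend on the length used.

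**Figure D1:**
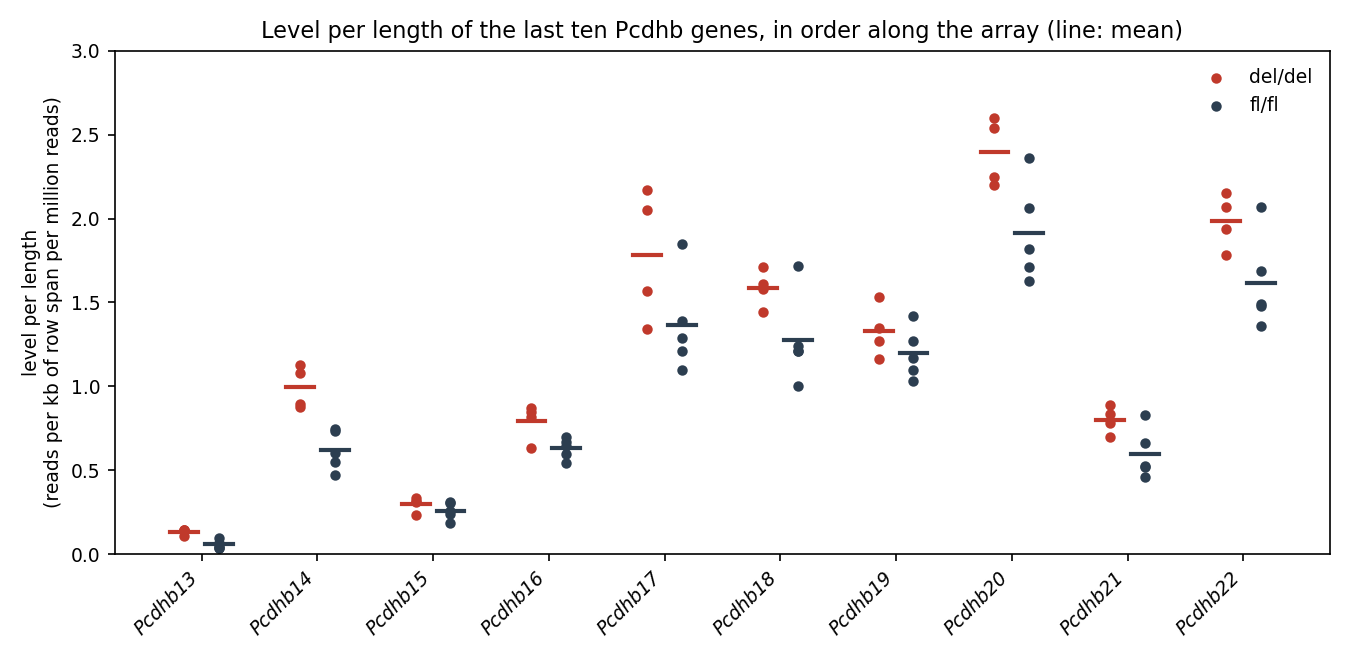
Level per length of each of the last 10 genes in order along the array, in RPM per kilobase of the row span, with 1 point per library (4 del/del, 5 fl/fl) and a bar at the mean. Pcdhb20 has the highest mean in both genotypes (2.4 in del/del, 1.92 in fl/fl) and Pcdhb13 the lowest (0.133 in del/del, 0.0582 in fl/fl).

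The genotype contrast was fitted to the log2 values of all 9 libraries by limma with sex as a covariate, and p-values were adjusted over the 14044 genes that reached a log2 level of 0 in 3 or more libraries. Of the 10 members, 8 were kept, each at or above that level in 9 of 9 libraries, so none entered through 1 genotype alone. Pcdhb13 and Pcdhb15 reached it in 0 libraries and were read from a fit without the filter (22321 genes). None of the 8 tested members passed at an adjusted p of 0.05, in either direction, against 1.55% of all genes tested (1.45% rose and 0.0997% fell). In the fit without the filter 0 of 10 passed, against 1.19% of genes that rose. An unadjusted p under 0.05 was found for 3 of the 8 (Pcdhb14, Pcdhb20 and Pcdhb21), against 9.84% of all genes. Limma's voom on the recovered reads called 0 of 8 members, while 249 of the 14044 genes rose and 15 fell. By voom 6 of the 8 had an unadjusted p under 0.05, beside 1414 of the 14044 genes.

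The estimates nevertheless lay above 0 for all 10 members, although that of Pcdhb19 was -0.00099 within the 6 libraries whose description starts with RNA-. The median log2 fold change was 0.31 for the 8 tested members and 0.31 for all 10 without the filter, beside medians of -0.00 over all genes kept and 0.01 over all genes without the filter. Within those 6 libraries the median of the 8 was 0.19 (0.12 in females, against 0.35 with all libraries), and Pcdhb17 and Pcdhb22 had 0.16 and 0.15. Female del/del 1, female fl/fl 1 and male fl/fl 7 lack the prefix. In females this setting is therefore the same as leaving out line 1, and prefix and line cannot be told apart there. The median of the 8 over all libraries was 0.22 with quantile normalization. The members are not shown to be unchanged, because the upper bounds of their 95% intervals ran from 0.39 for Pcdhb19 to 2.02 for Pcdhb13.

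Pcdhb14 had the smallest p of the members. Its levels were 1.90, 1.96 and 1.62 log2 RPM in female del/del 1, 2 and 3 and 1.59 in male del/del 5, against 1.05, 1.34 and 1.36 in female fl/fl 1, 2 and 3 and 0.69 and 0.91 in male fl/fl 5 and 7. Every del/del library lay above every fl/fl library. The reads behind these levels were 276 to 408 in del/del and 61 to 281 in fl/fl libraries. The log2 fold change was 0.64 (SE 0.153, 95% interval 0.30 to 0.98), a fold of 1.56, with an adjusted p of 0.0837. Over 22 settings of the analysis its value lay between 0.46 and 0.72 and its adjusted p between 0.0544 and 0.509, and it passed in none.

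Pcdhb13, the first member and the weakest, gave the largest estimate and the least certain one. Its levels were -0.92, -0.93 and -1.34 log2 RPM in female del/del 1, 2 and 3 and -0.94 in male del/del 5, against -2.41, -2.01 and -1.46 in female fl/fl 1, 2 and 3 and -2.81 and -2.94 in male fl/fl 5 and 7. The 2 genotypes did not overlap here either, but female del/del 3 and female fl/fl 3 were only 0.11 apart. In reads these were 39, 55, 39 and 53 in the del/del libraries in that order, and 22, 6, 40, 15 and 15 in the fl/fl libraries. Counting error alone gives an SD of about 0.214 log2 units in del/del and 0.393 in fl/fl libraries, beside a measured SD of 0.205 in del/del (n = 4) and 0.608 in fl/fl (n = 5). Without the filter its log2 fold change was 1.21 (SE 0.367, 95% interval 0.40 to 2.02) with an adjusted p of 0.22 by limma.

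The groups did not overlap for 2 of the 10 members, Pcdhb13 and Pcdhb14, with del/del higher. Among all genes with a read, 4.85% had every del/del value above every fl/fl value (5.53% of genes kept, while 0.99% had every del/del value below every fl/fl value). In the other 12 genes of the array it was 10 of 12, and the difference between the 2 sets was not tested.

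Pcdhb15, which sits across the widest gap, had -0.19, -0.21 and -0.10 log2 RPM in female del/del 1, 2 and 3 and -0.60 in male del/del 5, against -0.58, -0.20 and -0.24 in female fl/fl 1, 2 and 3 and -0.93 and -0.49 in male fl/fl 5 and 7. The groups overlapped: 1 of 5 fl/fl libraries lay below the lowest del/del library, and 2 of 4 del/del libraries lay above the highest fl/fl library, female del/del 1 by a small margin. It was read from 65 to 92 reads in del/del and 21 to 93 reads in fl/fl libraries, and its log2 fold change was 0.15 (95% interval -0.37 to 0.68, adjusted p = 0.998 without the filter, limma).

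Pcdhb16 had 2.16, 2.10, 2.20 and 1.74 log2 RPM in the del/del libraries (females 1 to 3, then male 5), against 1.52, 1.82, 1.88, 1.65 and 1.77 in the fl/fl libraries (females 1 to 3, then males 5 and 7). The 3 female del/del libraries stood above all fl/fl libraries, while male del/del 5 lay inside the fl/fl range. Its log2 fold change was 0.29 (SE 0.136, 95% interval -0.01 to 0.60, limma adjusted p = 0.534).

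Pcdhb17 showed the widest spread among del/del libraries, 2.83, 2.74, 2.14 and 2.36 log2 RPM in the same order of lines, against 1.85, 2.60, 2.18, 1.98 and 2.07 in the fl/fl libraries. Female del/del 3 lay below female fl/fl 3. The measured SD in del/del libraries was 0.324 (n = 4), against about 0.0626 from counting error, and the log2 fold change was 0.35 (SE 0.189, 95% interval -0.07 to 0.77, limma adjusted p = 0.673).

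The members with most reads were Pcdhb18, Pcdhb19 and Pcdhb20, which held 49.9% to 53.0% of the reads of the last 10 genes in del/del and 52.4% to 55.2% in fl/fl libraries. Pcdhb18 had 2.99, 3.02, 3.11 and 2.86 log2 RPM in the del/del libraries, against 2.33, 3.12, 2.64, 2.61 and 2.61 in the fl/fl libraries. Female fl/fl 2 alone lay above all del/del libraries, and the other 4 fl/fl libraries lay below all of them. The log2 fold change was 0.32 (SE 0.15, 95% interval -0.02 to 0.65, limma adjusted p = 0.557).

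Pcdhb19 gave the smallest estimate and the narrowest interval. Its levels were 3.44, 3.26, 3.18 and 3.05 log2 RPM in the del/del libraries, against 2.88, 3.34, 3.18, 2.98 and 3.06 in the fl/fl libraries, from 805 to 1009 reads in del/del and 244 to 995 reads in fl/fl libraries. The 2 sets were interleaved, and line 3 had the same level in both genotypes. With a log2 fold change of 0.12 (SE 0.118, limma adjusted p = 0.997) the 95% interval was -0.14 to 0.39, a fold of 0.906 to 1.31.

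Pcdhb20, the most abundant member per length, had 3.14, 3.11, 2.94 and 2.90 log2 RPM in the del/del libraries, against 2.47, 3.00, 2.81, 2.63 and 2.54 in the fl/fl libraries. Only female fl/fl 2 reached into the del/del range. The log2 fold change was 0.31 (SE 0.124, 95% interval 0.03 to 0.58, limma adjusted p = 0.416).

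The last 2 genes were alike in pattern. Pcdhb21 had 2.05, 1.96, 1.87 and 1.70 log2 RPM in the del/del libraries, against 1.11, 1.95, 1.63, 1.27 and 1.29 in the fl/fl libraries, with a log2 fold change of 0.41 (SE 0.175, 95% interval 0.01 to 0.80, limma adjusted p = 0.475). Pcdhb22 had 2.72, 2.67, 2.45 and 2.58 in the del/del libraries, against 2.06, 2.67, 2.37, 2.19 and 2.18 in the fl/fl libraries, with a log2 fold change of 0.29 (SE 0.14, 95% interval -0.02 to 0.60, limma adjusted p = 0.571). In both genes 4 of 5 fl/fl libraries lay below the lowest del/del library, and female fl/fl 2 did not.

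**Figure D2:**
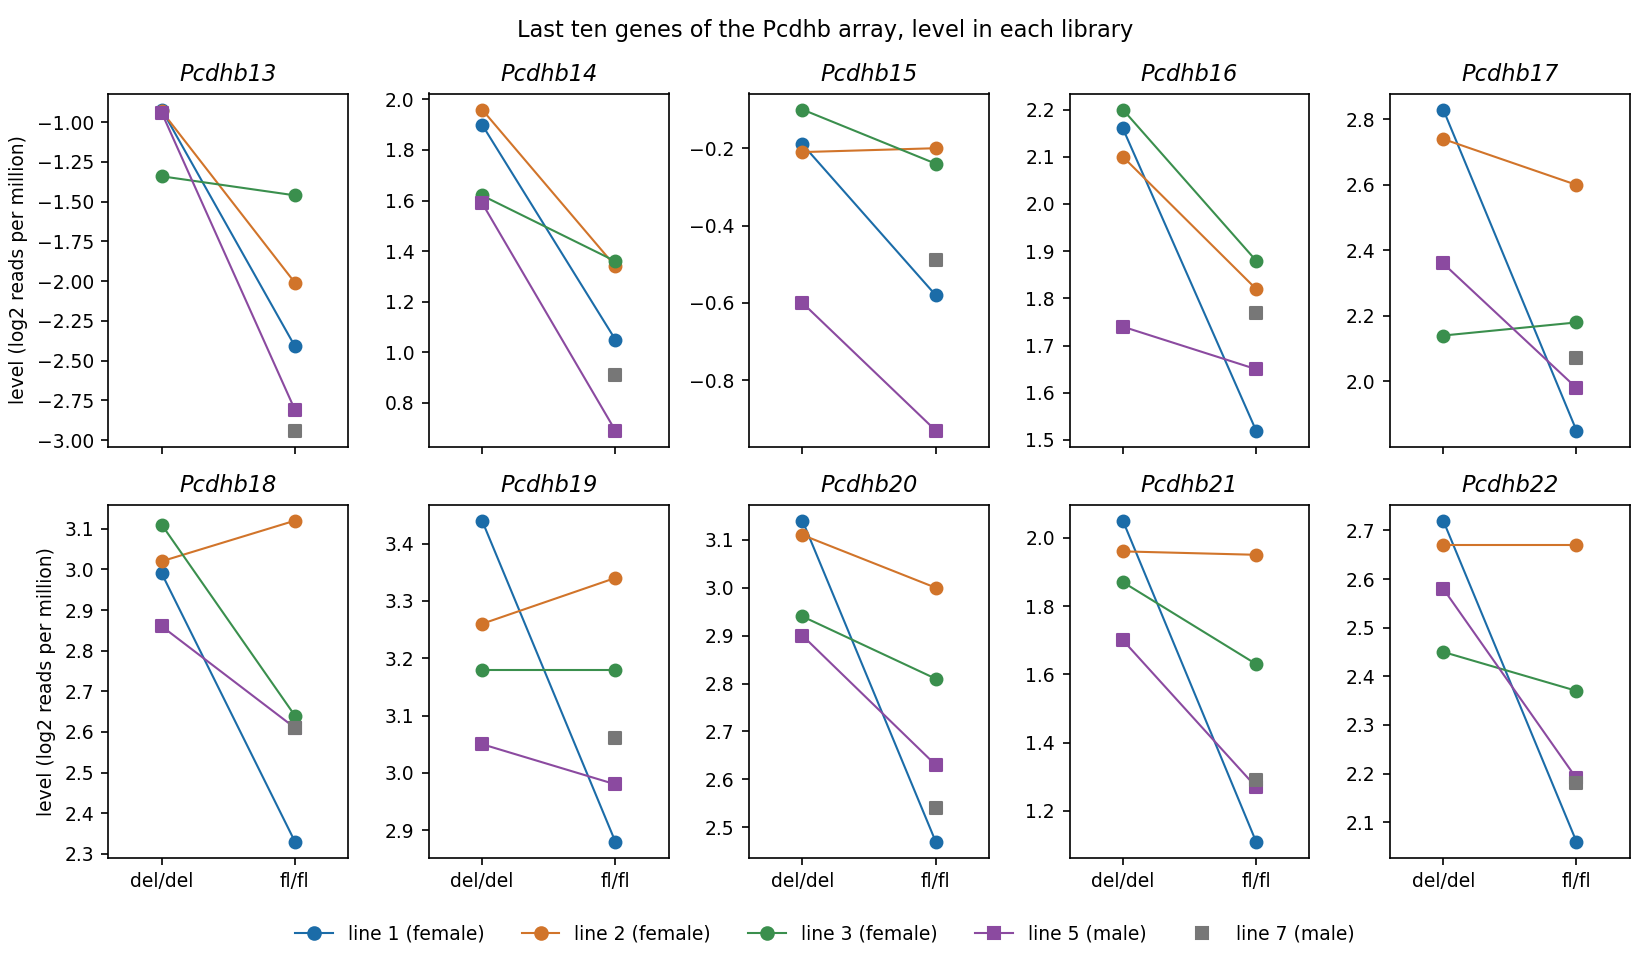
Level of each of the last 10 genes in each library, in log2 RPM on an axis that differs between panels, with circles for female and squares for male lines and a line joining the del/del and fl/fl libraries of 1 line. Pcdhb13 and Pcdhb14 are the members without overlap between genotypes, and the level of line 2 in fl/fl lies within 0.15 log2 units of its del/del level for Pcdhb15 and for Pcdhb17 to Pcdhb22.

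Female fl/fl 2, the library of low depth, was the highest fl/fl library for 7 of the 10 members, and female fl/fl 1 was the lowest for 7. Without female fl/fl 2 the groups did not overlap for 6 of the 10 members, Pcdhb13, Pcdhb14, Pcdhb18, Pcdhb20, Pcdhb21 and Pcdhb22. The same was then true of 10.3% of all genes with a read. The estimates without it were 0.68 for Pcdhb14, 0.45 for Pcdhb18, 0.39 for Pcdhb20, 0.53 for Pcdhb21 and 0.39 for Pcdhb22 on the log2 scale. Still 0 of 8 members passed (limma, lowest adjusted p = 0.0831 for Pcdhb14 and 0.105 for Pcdhb18). Leaving out female fl/fl 1 in its place lowered the estimates, to 0.20 for Pcdhb18, 0.26 for Pcdhb21 and 0.03 for Pcdhb19, with a median of 0.21 for the 8 members over both sexes and 0.17 in females, and 0 of 8 passed. Levels in female fl/fl 2 also depend on the scaling, and the part that its high share of reads in genes has in the members' values was not tested.

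The lines allow a comparison within each culture that was split, although with 1 library per arm a line gives no test of its own. In line 1 all 10 members were higher in del/del, with a median difference of 0.67 log2 units, from 0.39 for Pcdhb15 to 1.48 for Pcdhb13. In line 5 all 10 were higher, with a median of 0.36, from 0.07 for Pcdhb19 to 1.86 for Pcdhb13. Line 3 had 9 of 10 higher and a median of 0.13, from -0.04 for Pcdhb17 to 0.47 for Pcdhb18, and line 2 had 7 of 10 higher and a median of 0.06, from -0.09 for Pcdhb18 to 1.07 for Pcdhb13.

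These medians have to be read beside the shift of all genes kept in the same pair of libraries, which was 0.22 in line 1, 0.08 in line 5, 0.10 in line 3 and -0.25 in line 2. Reads were also scaled to the reads in listed genes, an alternative chosen after the data were seen. On that scale 10 of 10 members were higher in del/del in lines 1 and 2, 6 of 10 in line 3 and 8 of 10 in line 5. Of all genes kept, 42.3%, 68.4%, 45.6% and 46.6% were then higher in del/del in lines 1, 2, 3 and 5. The members' medians on that scale were 0.40, 0.56, 0.01 and 0.26 for the same lines. Set against the median of all genes kept in the same line, the members' median was higher by 0.44 in line 1, 0.32 in line 2, 0.03 in line 3 and 0.27 in line 5. Scaling by a constant per library cannot change these 4 values. On the log2(RPM + 1) scale, which can, they were 0.36, 0.29, -0.01 and 0.20 for lines 1, 2, 3 and 5. Line 3 thus stayed closest to the genes at large, and lines 1, 2 and 5 lay further above them.

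Over all members and lines, del/del was higher in 36 of 40 pairs. Of all genes kept, 81.3%, 32%, 75.6% and 69% were higher in del/del in lines 1, 2, 3 and 5, so the 9 of 10 members in line 3 lie not far from the genes at large. An interval for counting error alone lay above 0 in 21 of the 40 pairs, held 0 in 19 and lay below 0 in 0. It lay above 0 for 9, 1, 4 and 7 of the 10 members in lines 1, 2, 3 and 5. Such intervals were not computed for all genes, so these counts have no share to be read against and include the shift of each pair of libraries. For Pcdhb19 the differences were 0.56, -0.08, 0.00 and 0.07 log2 units in lines 1, 2, 3 and 5, and the counting interval held 0 in lines 2, 3 and 5. Pcdhb14 was higher in del/del by 0.85, 0.62, 0.27 and 0.90 in the same lines, and its interval lay above 0 in all 4. Pcdhb13 differed by 1.48, 1.07, 0.11 and 1.86, and its interval held 0 in line 2 (55 reads in del/del, 6 in fl/fl) and in line 3 (39 reads in del/del, 40 in fl/fl). In all, 6 of the 10 members were higher in del/del in each of the 4 lines, beside 15.9% of all genes with a read, and for 1 of the 6, Pcdhb22, the difference in line 2 was 0.00. As the members share libraries, and r between members over the 9 libraries ran from 0.59 to 0.98 (median 0.80, 45 pairs), these counts are not independent observations.

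**Figure D3:**
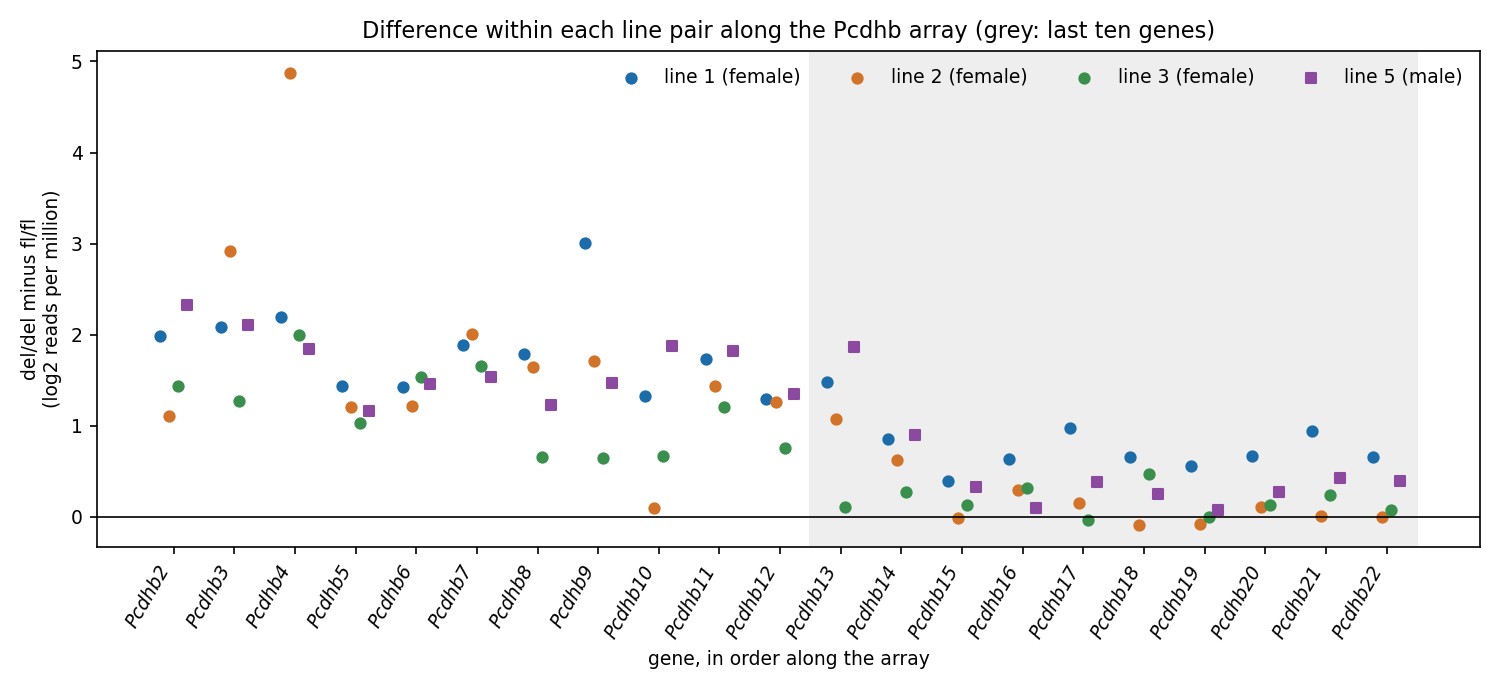
Difference within each line, del/del minus fl/fl in log2 RPM, for Pcdhb2 to Pcdhb22 in order along the array, with 1 point per line and the last 10 genes on grey. In the grey region the medians per line run from 0.06 in line 2 to 0.67 in line 1, while to the left of it they run from 1.21 in line 3 to 1.79 in line 1.

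The sexes were compared through a model of 4 group means, which takes the spread of the lone male del/del library to equal that of the rest. In females 0 of 8 members passed, against 0.0142% of all genes. An unadjusted p under 0.05 was found for 2 of the 8, beside 916 of the 14044 genes. By voom 0 of 8 passed, while 27 genes rose and 1 fell. Such an unadjusted p was found by voom for 4 of the 8, beside 885 of the 14044 genes. The log2 fold changes of the 8 in females ran from 0.16 for Pcdhb19 to 0.58 for Pcdhb14 (95% interval 0.13 to 1.03, limma adjusted p = 0.501). In males 0 of 8 passed, against 0% of all genes, with 370 genes and 1 member at an unadjusted p under 0.05 (503 genes and 1 member by voom, which called 0). A fit that blocked on line called 47 genes higher and 2 lower in male del/del, and 0 of 8 members. Values of the 8 in males ran from 0.03 for Pcdhb16 and Pcdhb19 to 0.79 for Pcdhb14 (95% interval 0.11 to 1.46, limma adjusted p = 1).

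The difference of the effect between females and males was tested directly. No gene passed in limma (0% of genes, 6 at an unadjusted p under 0.05, and 0 passed with 9 such genes by voom), and 0 of 8 members did. The largest difference among the 8 was for Pcdhb16, 0.41 in females and 0.03 in males, with a difference of 0.38 (95% interval -0.29 to 1.06, limma adjusted p = 1). The intervals therefore leave room for sex differences larger than the effects themselves.

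In the untransduced fl/fl cultures the members were also compared between the sexes. Female minus male log2 differences ran from 0.03 for Pcdhb16 to 0.45 for Pcdhb14 (95% interval -0.05 to 0.95) among the 8 members tested, and 0 of 8 passed, against 0.0356% of all genes (0.0142% higher and 0.0214% lower in females; limma, lowest adjusted p of a member 0.992). For Pcdhb16, Pcdhb17, Pcdhb18 and Pcdhb19 the sign of this difference turned under at least 1 of the scalings or left-out libraries. For Pcdhb13, the rarest member, it was 0.92 without the filter (95% interval -0.18 to 2.01, limma adjusted p = 0.994).

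**Figure D4:**
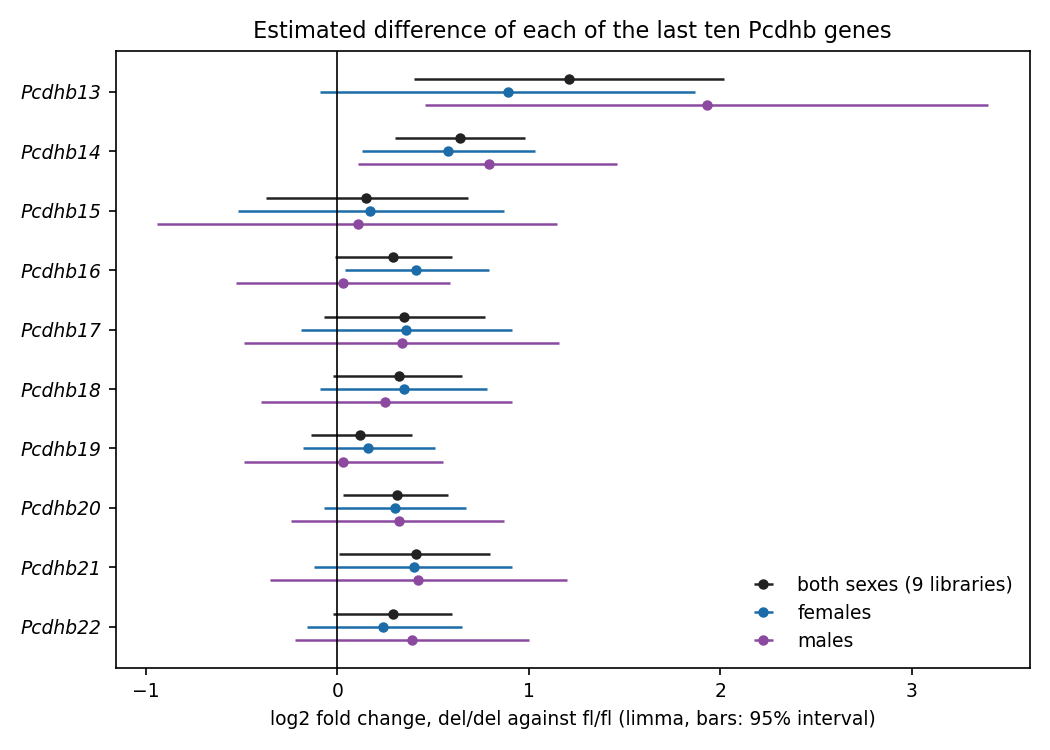
Estimated log2 fold change of each of the last 10 genes, del/del against fl/fl, over both sexes, in females and in males, with bars for the 95% interval from limma. Pcdhb13 and Pcdhb15 come from the fit without the filter. All points lie above 0, from 0.03 to 1.93, and most intervals cross 0.

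The other 12 genes of the array differed in their values. Of the 9 that were kept, 6 rose (Pcdhb2, Pcdhb3, Pcdhb4, Pcdhb5, Pcdhb7 and Pcdhb11) and none fell. Their median log2 fold change was 1.66. Without the filter 7 of 12 rose, with a median of 1.57, beside 0.31 for the last 10. As 6 of the 12 were kept only through their del/del libraries, the count among those kept is a description. At the border between the sets the estimates, without the filter, were 1.59 for Pcdhb11, 1.10 for Pcdhb12 and 1.21 for Pcdhb13, followed by 0.64 for Pcdhb14 and 0.15 for Pcdhb15. The values of Pcdhb12 are uncertain, because 64.2% of its words of 50 bases also occur in another gene.

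Over the 21 genes Pcdhb2 to Pcdhb22, estimates were lower the later a gene lies in the array (Spearman rho -0.87), and later genes were also more abundant in fl/fl libraries (rho 0.76). Within the last 10 genes rho between position and estimate was -0.39, and without Pcdhb13 it was -0.17 over 9 genes. Within Pcdhb2 to Pcdhb12 it was -0.63 over 11 genes. Between fl/fl level and estimate rho was -0.76 over the 21 genes and -0.53 within the last 10. That rho was -0.35 without Pcdhb13 and -0.37 within Pcdhb2 to Pcdhb12, and the fl/fl level itself enters the estimate. These correlations run across genes that share libraries, depth and the same fit, and they are given as descriptions.

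Added up, the last 10 genes had 55.1, 52.9 and 47.9 RPM in female del/del 1, 2 and 3 and 44.8 RPM in male del/del 5, against 33.7, 50.2 and 42.6 RPM in female fl/fl 1, 2 and 3 and 36.5 and 37.6 RPM in male fl/fl 5 and 7. The sets overlapped through female fl/fl 2. Their mean was 50.2 ± 4.68 RPM in del/del (SD, n = 4) and 40.1 ± 6.49 RPM in fl/fl libraries (SD, n = 5). The other 12 genes summed to 24.3 ± 2.24 RPM in del/del (SD, n = 4) and 8.54 ± 0.941 RPM in fl/fl libraries (SD, n = 5), with no overlap.

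The share of the array's reads that fell in the last 10 genes does not depend on how libraries are scaled. It was 68.2%, 67.1%, 69.4% and 64.9% in female del/del 1, 2 and 3 and male del/del 5, against 82.0%, 84.0% and 81.9% in female fl/fl 1, 2 and 3 and 82.3% and 81.5% in male fl/fl 5 and 7. The del/del mean was 67.4% ± 1.91 (SD, n = 4) and the fl/fl mean 82.3% ± 0.971 (SD, n = 5). The exact Clopper-Pearson 95% interval was widest for female fl/fl 2, 82.0% to 85.9% of 1441 reads, and it covers counting error only. Lines 1, 2, 3 and 5 each had a lower share in del/del than in fl/fl. The share is set by both parts of the array, and no test was made of it because the members were chosen with results known.

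**Figure D5:**
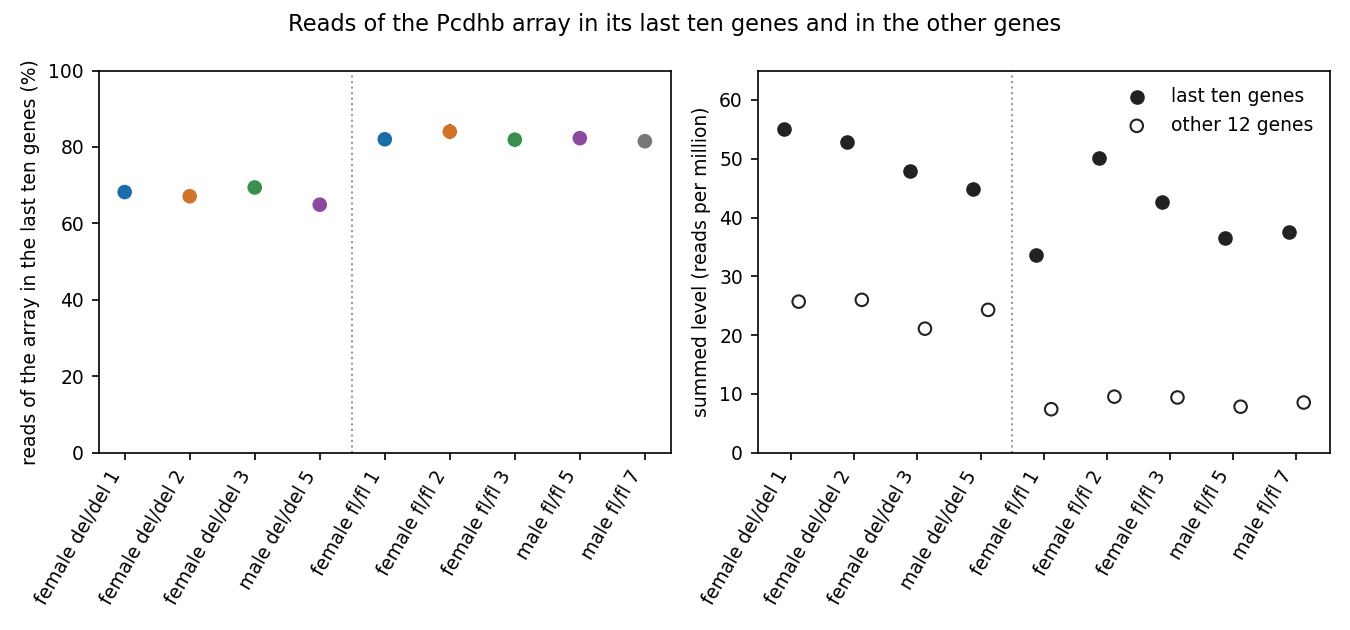
Left, reads in the last 10 genes as a percentage of all reads of the beta array in each library, with 95% intervals that are mostly narrower than the points; right, summed level of the last 10 genes and of the other 12 genes in RPM. The 4 del/del libraries lie between 64.9% and 69.4% and the 5 fl/fl libraries between 81.5% and 84.0%, and on the right the open points differ between genotypes more than the filled ones.

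Within the last 10 genes, the 3 members with most reads were Pcdhb18, Pcdhb19 and Pcdhb20. They made up 51.1% ± 1.4 of the reads in del/del (SD, n = 4) and 53.6% ± 1.03 in fl/fl libraries (SD, n = 5), and these ranges overlapped. Pcdhb13 and Pcdhb14 together made up 7.3% to 8.3% of the reads in del/del and 4.8% to 6.9% in fl/fl libraries, without overlap. As these are the members whose own levels did not overlap, their share is a description.

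Other genes of the family and its surroundings were read from the same fit. The alpha and gamma arrays have 1 row each in the table, and these rows (chr18:36930285-37187657 and chr18:37674335-37841873) reach over many genes of their arrays. The alpha row, named Pcdhac1, rose, with 4.75 ± 0.13 log2 RPM in del/del (SD, n = 4) and 3.47 ± 0.335 in fl/fl libraries (SD, n = 5; log2 fold change 1.27, limma adjusted p = 0.0084). The gamma row, named Pcdhga11, which lies beyond Pcdhb22, had 7.77 ± 0.151 in del/del and 7.70 ± 0.319 in fl/fl libraries (SD, n = 4 and 5; log2 fold change 0.03, SE 0.191, limma adjusted p = 0.998). Of 9 nonclustered protocadherins tested, which lie outside the arrays, 1 rose, Pcdh7 (log2 fold change 0.56, limma adjusted p = 0.0295), and the median was 0.07.

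Of the 13 tested genes that lie beside the arrays, 0 rose and 0 fell, with a median of -0.07. Among 24 genes for CTCF, cohesin, DNA methylation and related silencing, 0 rose and only Smchd1 fell, with a median of -0.13. Ctcf, the insulator protein that binds protocadherin promoters, had a log2 fold change of -0.13 (SE 0.187, limma adjusted p = 0.997), and Dnmt3b, a DNA methyltransferase that acts on these promoters in development, -0.02 (SE 0.143, limma adjusted p = 0.998). Tet2, which oxidises methylated DNA, had the smallest p after Smchd1 (0.40, SE 0.0906, limma adjusted p = 0.0705).

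Markers of other cell types were read because clustered protocadherins are used most in neurons. Of 11 neuron markers tested, 2 rose, the neurofilament genes Nefm (1.49) and Nefl (1.25), and the median was -0.24. Without the filter 3 of 14 rose. The third was Gad2, for an enzyme of GABA synthesis, with -0.10 log2 RPM in del/del and -1.99 in fl/fl libraries. The row of Nefm (chr14:68082590-68124846) contains that of Nefl (chr14:68083863-68089095). How reads there were assigned is not given in the sources used here, so the rises of Nefm and Nefl may share reads. The summed neuron markers were 321 to 373 RPM in del/del and 289 to 519 RPM in fl/fl libraries. The largest part of this sum came from Map2, with 7.49 log2 RPM in del/del and 7.69 in fl/fl libraries. Of 8 astrocyte markers 3 rose, the filament gene Gfap (2.07), the water channel gene Aqp4 (1.66) and the glutamate transporter gene Slc1a2 (0.66), with a summed level of 211 to 259 RPM in del/del and 167 to 246 RPM in fl/fl libraries. Of the oligodendrocyte lineage, microglia and leukocyte, fibroblast and mesenchyme, and endothelium markers, 6, 2, 2 and 2 were tested and 0 passed. The summed oligodendrocyte lineage markers were 190 to 216 RPM in del/del and 156 to 293 RPM in fl/fl libraries, and those of microglia and leukocytes 101 to 113 RPM in del/del and 88.9 to 122 RPM in fl/fl libraries. Nearly all of the microglia and leukocyte sum came from the row named Cx3cr1 (6.67 log2 RPM in del/del, 6.65 in fl/fl). That row spans chr9:119901616-120068283, and whether all its reads come from Cx3cr1 was not tested. Csf1r had 2.47 log2 RPM in del/del and 2.52 in fl/fl libraries, while Ptprc, Aif1, Itgam and Tyrobp had means below 0 in both genotypes. Fibroblast and mesenchyme markers summed to 53.2 to 86.8 RPM in del/del and 37.6 to 71.1 RPM in fl/fl libraries, and endothelium markers to 3.81 to 7.95 RPM in del/del and 2.61 to 4.47 RPM in fl/fl libraries. Most of the fibroblast and mesenchyme sum came from Acta2 (5.50 log2 RPM in del/del, 5.17 in fl/fl) and Tagln (4.26 in del/del, 4.03 in fl/fl). Of all markers only Lum had no read in any library. The part of these cell types in the members' values was not tested.

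The genes whose levels over the 9 libraries were most like the summed level of the last 10 were Nrip1 (Pearson r 0.95), a nuclear receptor cofactor gene, Alcam (0.949), a cell adhesion gene of the immunoglobulin family, Ube2f (0.934), for a NEDD8-conjugating enzyme, Cplx2 (0.928), for a synaptic complexin, and Crem (0.928), for a transcription factor of the cAMP response. None lies in a protocadherin array and none passed between genotypes, with log2 fold changes of 0.21, 0.40, 0.25, 0.33 and 0.28. These are the highest of about 14044 values of r over the same 9 libraries, and they share the depth and scaling of those libraries.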

How the data were processed

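The authors deposited 1 table of 25965 genes with the level of each gene in each of 9 RNA-seq libraries in log2 RPM (reads per 1 M reads of the library), per the file headers and the values. Per the submitters' processing notes, bcl2fastq, TopHat2 2.0.12, edgeR 3.8.2 and the build mm10 were used; read counter, annotation and strandedness: not given in the sources used here. In every library at least 99.9948% of values came out as whole reads (tolerance 0.05 reads, 0 reads entered as 0.9), which gave 24.1 to 116.6 M reads per library. Groups were taken from the sample titles. The design text of the series calls all lines female and the controls del/fl, and the sample labels were followed.

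The 14044 genes that reached a log2 level of 0 in 3 or more libraries were tested in R 4.3.3 by limma 3.58.1 (lmFit and trended eBayes, two-sided, Benjamini-Hochberg over all these genes, threshold 0.05), with sex as a covariate over both sexes, and in a model of 4 group means for the sexes. The code was tested on simulated data. Alternatives were a pseudocount of 1, other scalings, other filters, voom on recovered reads, line as a block, the prefix RNA- that 6 libraries carry in their descriptions, and each library left out. Scaling within line pairs, and female fl/fl 2 left out together with listed-gene scaling, were added after the data were seen. No negative binomial test was run.

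Line numbers pair the libraries, since the growth protocol says that lines were split. Deviations from the group means correlated across genes with r of 0.868, 0.582 and 0.758 in female lines 1, 2 and 3. Between lines r was 0.728 for del/del 2 with fl/fl 3 and 0.494 for del/del 3 with fl/fl 2. Del/del 2 was thus closer to fl/fl 3 than to fl/fl 2, and of the female lines only line 1 lacks the prefix. Deviations within a group of 3 also depend on each other, so these values cannot establish the pairing. The members and lists were chosen with earlier results of these data known. The genes named are the members, Smchd1, those of each list with the smallest p or a role named in the text, and the 5 genes most correlated with the members' sum. Ctcf, Dnmt3b, Gad2, Map2, Acta2 and Tagln, and the microglia and leukocyte markers, were named after their values were seen.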

Additional observations from a re-analysis of the deposited data

Results flagged for a closer look

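Pcdhb13 in female del/del 3 had a log2 level of -1.34 RPM, below the other 3 del/del libraries, which lay between -0.94 and -0.92. It rests on 39 reads, and its 95% counting interval of 0.28 to 0.539 RPM holds the levels of those 3 libraries (0.52 to 0.527 RPM). Of 24 groups of 4 or 5 libraries looked at in this way it was the only one that stood out, and chance alone marks about 1 in 20 groups.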

How the results depend on the processing

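In the comparison over both sexes no member passed in any of 22 settings, while 2 to 562 of all genes tested did. In females no member passed in the same settings, while 0 to 276 of all genes did. The log2 fold changes over both sexes of the 8 tested members kept their sign in all settings with 1 exception, Pcdhb19, which was -0.00099 (and -0.04 in females) within the 6 libraries with the RNA- prefix, where their median was 0.19. With the replicate block by line, 562 genes passed over both sexes (530 rose, 32 fell) and 276 in females, against 217 and 2 without it, 47 genes rose and 2 fell in males, and Pcdhb14 had an adjusted p of 0.0551; the block changed no member's call. Over both sexes the count of genes was 104 with quantile normalization (86 rose, 18 fell, against 203 and 14), 69 with reads in listed genes as the scale, 398 with the prefix as a covariate, and 2 to 252 with 1 library left out. It was 2 without male del/del 5, 54 and 66 without female del/del 2 and 1, 94 without female fl/fl 3, 117 without male fl/fl 5 and 135 without female del/del 3. In females it was 39 with log2(RPM + 1), 1 with median centring, 1 with listed-gene scaling (also without female fl/fl 2), 28 with voom, 26 with block and median centring, 0 within the prefix, 44 with the prefix covariate and 0 to 7 with 1 library left out. For female against male fl/fl it was 2 with the stricter filter and 2 to 6 with 1 library left out, against 5. In that contrast Pcdhb16 was -0.05 with median centring, -0.14 with listed-gene scaling and -0.04 to 0.14 with 1 library left out. Pcdhb17 was -0.01 without female fl/fl 2 and up to 0.36 without another library. Pcdhb18 was -0.08 with listed-gene scaling, -0.0035 with voom, -0.10 with listed-gene scaling without female fl/fl 2, and -0.12 to 0.27 with 1 library left out. Pcdhb19 was -0.05 with listed-gene scaling. The median fl/fl level per length was 2.32 with listed-gene scaling, against 0.915, as only those reads then entered the scale. The line block gives no value for female against male fl/fl, and leaving out male del/del 5 gives none for the effect in males. The causes of the other changes were not tested. Depth limits Pcdhb13 (6 to 55 reads) and Pcdhb15 (21 to 93 reads) most.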
